A study of Mus musculus with 1 sample.

Results

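RNA-binding proteins of the PTB, Musashi, neuronal ELAV, RBFOX and NOVA families were followed across the cell classes of the newborn mouse cerebral cortex. The members were the 10 rows, of 51912 genes listed in the UMI table, whose symbols were Ptbp1, Ptbp2, Msi1, Elavl2, Elavl3, Elavl4, Rbfox1, Rbfox2, Rbfox3 and Nova1. The rule reads the symbols alone. A unique molecular identifier (UMI) marks each captured transcript, so that PCR copies are counted once. The data comprised 1 WT library of single cells from the cerebral cortex of C57BL/6 mice at postnatal day 0 (P0), with 11062 cells and 90346034 UMIs. The tissue is labelled as cortex, but the sample's title calls it telencephalic, and 15 cells passed a striatal-type gate. As there was 1 library, no value has a replicate error and no test between classes was possible. The brackets below give 95% intervals for counting error only, and the number of mice pooled is not given in the sources used here.

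These proteins are known to set the splicing, stability and translation of transcripts as neural progenitors become neurons. PTBP1, found in progenitors and in most non-neural cells, represses many neuronal exons, and its paralog PTBP2 takes over in young neurons. MSI1 is a translational regulator long used as a marker of neural progenitors. The neuronal ELAV (Hu) proteins bind AU-rich and U-rich sequences and stabilise transcripts or change their splicing. RBFOX proteins regulate neuronal exons, RBFOX3 being the antigen NeuN that marks maturing neurons, and NOVA1 is a splicing regulator of neurons.

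The promoters of the 3 members that were more than 2-fold higher in newborn than in other excitatory neurons are printed here, since the study concerns neurogenesis and the proneural factors of the cortex bind E-boxes. Capitals mark the E-box letters CAGATG and CAGCTG, searched on both strands. The sequences are from RefSeq (GRCm38.p6), 5′ to 3′ on the strand of the gene, from 250 bases before to 50 bases after its start. They lie at chr10:79854182-79854481 (plus strand) for Ptbp1, chr4:91399935-91400234 (minus strand) for Elavl2 and chr4:110351862-110352161 (minus strand) for Elavl4.
Ptbp1: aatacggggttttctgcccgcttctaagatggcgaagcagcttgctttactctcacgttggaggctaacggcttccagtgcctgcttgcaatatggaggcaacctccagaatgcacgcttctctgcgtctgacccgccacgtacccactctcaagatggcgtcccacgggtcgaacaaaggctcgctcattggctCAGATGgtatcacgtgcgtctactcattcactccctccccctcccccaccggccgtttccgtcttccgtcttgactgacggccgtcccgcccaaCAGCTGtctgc
Elavl2: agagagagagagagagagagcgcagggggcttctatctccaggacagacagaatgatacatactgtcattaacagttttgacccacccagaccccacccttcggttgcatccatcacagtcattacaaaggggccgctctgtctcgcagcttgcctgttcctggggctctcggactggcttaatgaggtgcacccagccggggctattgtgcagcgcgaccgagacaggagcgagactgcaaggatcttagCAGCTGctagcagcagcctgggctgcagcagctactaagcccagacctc
Elavl4: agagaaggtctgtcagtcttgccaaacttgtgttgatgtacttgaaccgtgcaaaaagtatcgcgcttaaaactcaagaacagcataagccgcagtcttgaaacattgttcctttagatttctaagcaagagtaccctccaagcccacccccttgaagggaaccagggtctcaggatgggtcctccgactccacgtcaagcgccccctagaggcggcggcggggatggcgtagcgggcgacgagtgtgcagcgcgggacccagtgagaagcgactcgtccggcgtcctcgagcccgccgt
The Ptbp1 promoter held 1 match to each E-box. The Elavl2 promoter printed here held 1 match to CAGCTG, and the Elavl4 promoter printed here held 0. The table has 6 starts for Elavl2, of which 0 held CAGATG and 3 held CAGCTG, and 4 starts for Elavl4, of which 3 held CAGATG and 2 held CAGCTG. Of 32851 promoters of the same length, 17.2% held CAGATG and 16.3% held CAGCTG, so single matches were common. GC content was 58.3% at the single Ptbp1 start, 56 to 72.3% over the Elavl2 starts and 43.7 to 57% over the Elavl4 starts, against a median of 52.7% over all promoters. The printed Elavl2 and Elavl4 promoters were both at 57%. In all, 8 of the 10 members were matched to this table.

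Cells were placed in classes by the UMIs of marker genes, none of them a member. The names rest on these gates alone, and all of them should be read as "-like". Of the 8446 cells with at least 200 genes and 2000 UMIs, 141 were dividing progenitors (at least 3 of Mki67, Top2a, Cdk1, Birc5, Cenpf, Nusap1, Ube2c and Ccna2). A further 203 were newborn excitatory neurons (the gate of Eomes, Neurog2, Neurod1 and similar genes), 6410 were other excitatory neurons, 449 were interneurons, 315 were radial glia or astrocytes and 315 were of the oligodendrocyte lineage. The oligodendrocyte lineage class held cells whether dividing or not, and cells of its gate were left out of the dividing progenitors. Layers were assigned to 2157 layer II/III, 1020 layer IV, 526 layer V and 704 layer VI neurons. The layer VIb gate held 5 cells and its levels are not given. Endothelial, mural and microglial cells, 49 in all, were joined as the non-neural class, in which neuronal transcripts give a level of background.

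Genes outside the gates followed these names. Vim, an intermediate filament of radial glia, was at 1485 CPM (UMIs of a gene per 1000000 UMIs of the class) in radial glia or astrocytes and at 6.99 CPM in excitatory neurons, and Fabp7 at 3567 CPM in dividing progenitors and at 28.5 CPM in excitatory neurons. Tubb3, the neuronal tubulin, was at 2698 CPM in excitatory neurons and at 695 CPM in dividing progenitors. Transcripts of excitatory neurons were nonetheless spread over other classes. At least 1 UMI of Neurod2 or Neurod6 was found in 52.5% of dividing progenitors, 45.1% of radial glia or astrocytes, 46.3% of the oligodendrocyte lineage, 52.1% of interneurons and 48.98% of the non-neural cells, which should lack both genes. The median depth of the non-neural cells was 7073 UMIs and that of excitatory neurons 9215. Scrublet, a doublet caller, marked 9.93%, 9.52%, 12.1%, 9.13% and 11.3% of dividing progenitors, radial glia or astrocytes, oligodendrocyte lineage, interneurons and newborn neurons, against 2.81% of excitatory neurons. Levels in cells with 0 Neurod2 and Neurod6 UMIs are therefore given beside many of the results for these classes, an alternative chosen after seeing the data. In dividing progenitors this filter also changes the mix of cells. It removes 27 of the 32 that had an Eomes UMI and lay outside the inhibitory gate. The part of shared RNA or doublets in each level was not tested.

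**Figure D1:**
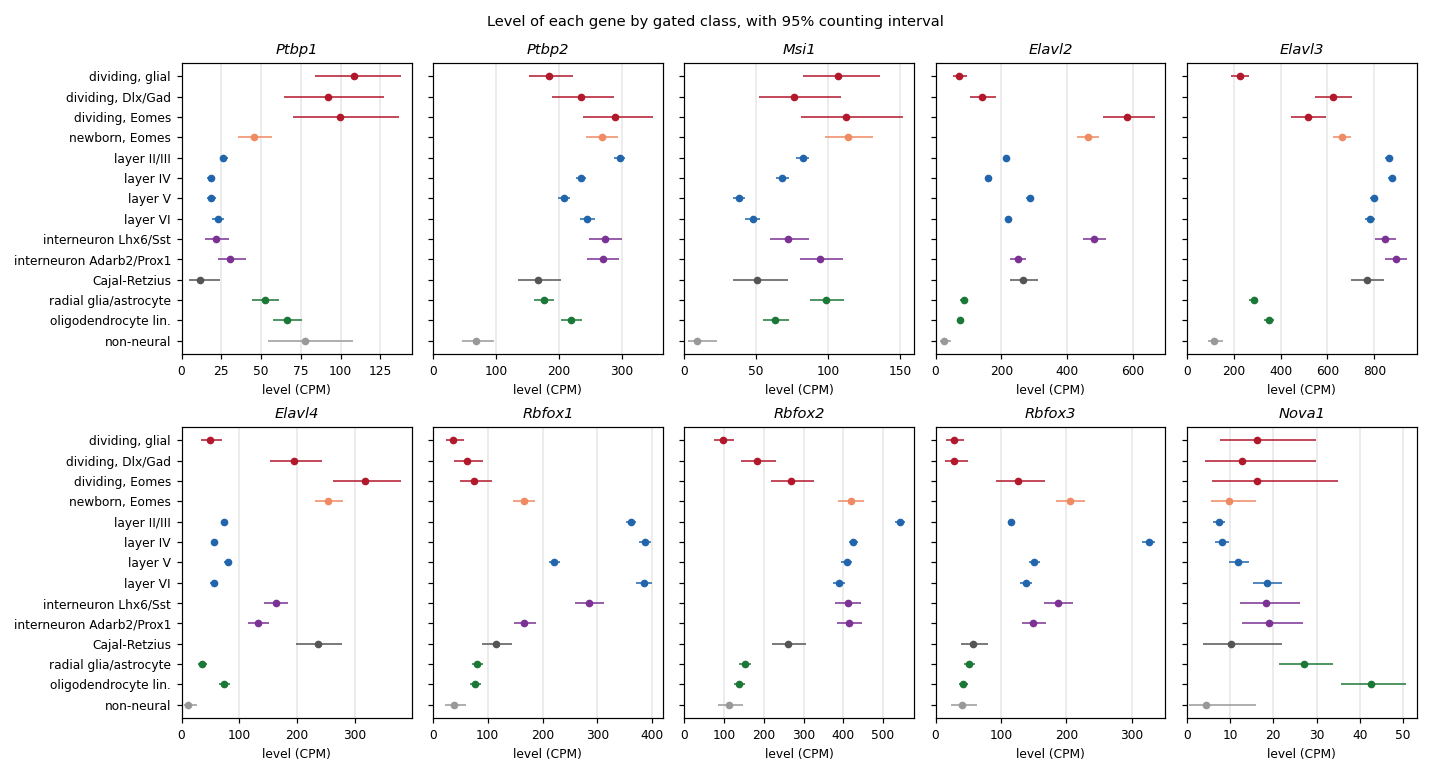
Level of each of the 10 genes (x axis, CPM, a linear scale that differs between panels) in 14 gated classes (y axis), with 95% Poisson intervals for counting error. Ptbp1 is highest in the 3 dividing classes, at 91.97 to 109 CPM, and Elavl4 in Eomes dividing cells, at 317 CPM, while Rbfox1 stays at or below 80.8 CPM in dividing cells and in both glial classes.

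Between dividing progenitors and excitatory neurons, Ptbp1 and Elavl4 were at least 2-fold higher in the dividing cells, and Rbfox1, Rbfox2 and Rbfox3 at least 2-fold lower. Thus 2 of 10 members were higher, where 10.6% of the 10008 genes tested were, and 3 were lower, where 19% were, so that 5 were 2-fold apart in either direction beside 29.6% of genes. These counts lie near those of genes in general, so it is the identity of the members and not their number that is described below. Between newborn and other excitatory neurons, 3 members were higher (Ptbp1, Elavl2 and Elavl4), against 6.17% of 10134 genes, and 0 lower, against 11% (17.2% in either direction). Without marked doublets Msi1 (2.09-fold, higher) and Rbfox1 (0.355-fold, lower) were past 2-fold as well, a setting for which no share over all genes is given. Rbfox1 was at 0.297 in a further setting. In radial glia or astrocytes 2 members were higher (13.5% of 11580 genes) and 5 lower (15.9%, or 29.4% in either direction). In the oligodendrocyte lineage again 2 were higher (12.6% of 11766 genes) and 5 lower (14.8%, or 27.5% in either direction). In both glial classes the higher members were Ptbp1 and Nova1 and the lower ones Elavl2, Elavl3, Rbfox1, Rbfox2 and Rbfox3. Elavl4 (0.279-fold, lower) was past 2-fold as well in radial glia or astrocytes without Neurod UMIs. Interneurons differed for Elavl4, as 1 higher member (3.46% of 12059 genes) and 0 lower (3.85%, or 7.31% in either direction). In interneurons without Neurod UMIs Elavl2 (2.01-fold) and Nova1 (2.65-fold) were past 2-fold as well. With gates on thinned cells Nova1 (higher) and Rbfox1 (lower, 0.429) were past 2-fold as well. No share over all genes is given for these settings. All 10 members passed the filter of 10 expected UMIs per class in these 5 comparisons, which share the excitatory neurons and are not independent. The median log2 ratio of the members was -0.02 in dividing progenitors, where that of all tested genes was -0.08, and -1.10 in radial glia or astrocytes, where that of all tested genes was -0.07.

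**Figure D2:**
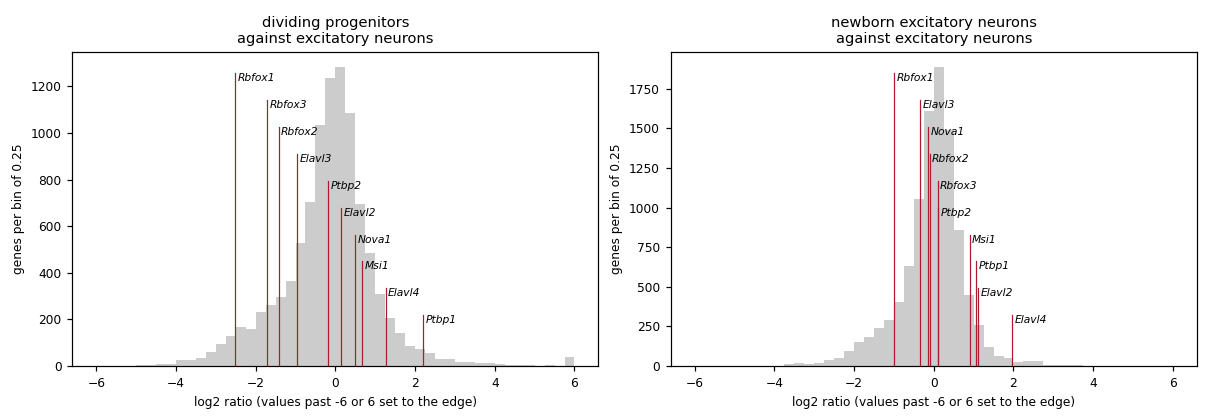
Number of genes (y axis) by log2 ratio (x axis, bins of 0.25) for all tested genes, in dividing progenitors (left) and newborn neurons (right) against excitatory neurons; red lines mark the 10 members. In dividing progenitors Ptbp1 stands at 2.21 and Rbfox1 at -2.52, and in newborn neurons Elavl4 stands at 1.97, with Rbfox2, Rbfox3, Ptbp2 and Nova1 near 0.

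Ptbp1, the splicing repressor of progenitors, was highest in dividing cells. Its level was 100.1 CPM (84.8 to 117) in dividing progenitors, 45.4 CPM (35.6 to 57.0) in newborn neurons and 21.7 CPM (20.6 to 22.8) in other excitatory neurons. The intervals of these 3 classes did not overlap, though the dividing class pools several lineages. Dividing progenitors were 4.61-fold (3.88 to 5.46) above excitatory neurons, and the 67 dividing cells without Neurod UMIs were 4.96-fold above them. Among dividing cells it was at 99.4 CPM in those with an Eomes UMI and outside the inhibitory gate (32 cells, called Eomes dividing cells). It was at 91.97 CPM in those of the inhibitory gate (38 cells) and 109 CPM in those of the radial glia gate (54 cells). The newborn gate was not applied to these groups. The intervals of these 3 groups overlapped. Among layers it was at 26.3 CPM (23.8 to 29.0) in layer II/III and 18.5 CPM (16.2 to 20.9) in layer IV, a difference that was within counting error in cells of 8000 to 12000 UMIs (ratio of IV to II/III 0.932, 0.695 to 1.25).

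Cells that were not dividing held less Ptbp1 than dividing cells in each lineage that could be compared. Dividing cells of the inhibitory gate were 3.55-fold (2.35 to 5.26) above interneurons, which were at 25.9 CPM (20.9 to 31.7). Dividing cells of the radial glia gate were 2.08-fold (1.53 to 2.79) above radial glia or astrocytes that were not dividing, at 52.3 CPM. Ptbp1 was also found in the oligodendrocyte lineage, a class that joins dividing and other cells, at 66.0 CPM (57.2 to 75.8). It was found too in the non-neural cells, at 77.6 CPM (54.0 to 108), which did not differ from dividing progenitors beyond their intervals (ratio 1.29, 0.889 to 1.92). Among the last 500 bases of Ptbp1 transcripts, 8.15% of the 50-base windows are shared with Gm18815 or Gm4900 in GENCODE, so a part of its reads may not have been assigned uniquely. Neither symbol is among the genes listed in the UMI table, and whether the counting annotation held those genes is not known.

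Ptbp2, the neuronal paralog, showed a small range by contrast. It was at 220.8 CPM (198 to 246) in dividing progenitors, 268.5 CPM (244 to 295) in newborn neurons and 249.8 CPM (246 to 254) in excitatory neurons. The dividing cells therefore stood at 0.884 (0.791 to 0.985) of the excitatory level, and at 0.709 (0.585 to 0.851) when cells with Neurod UMIs were left out. Glia were not devoid of it, with 175.8 CPM (161 to 192) in radial glia or astrocytes and 219.7 CPM (203 to 237) in the oligodendrocyte lineage. Layers ranged from 209 CPM (199 to 218) in layer V to 297 CPM (288 to 305) in layer II/III. The non-neural cells were lowest at 68.7 CPM (46.7 to 97.5), which was 42.8 CPM in the 25 of them without Neurod UMIs.

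Msi1, the progenitor marker, was present in neurons as well. It was at 97.5 CPM (82.4 to 115) in dividing progenitors, 98.9 CPM (87.7 to 111) in radial glia or astrocytes and 114 CPM (98.2 to 132) in newborn neurons, 3 levels with overlapping intervals. Excitatory neurons were at 61.2 CPM (59.3 to 63.1) and the non-neural cells at 8.87 CPM (2.42 to 22.7). The ratio of dividing progenitors to excitatory neurons, 1.59 (1.34 to 1.88), did not reach 2-fold, and was 1.59 also without Neurod UMIs. Without such cells radial glia or astrocytes were at 117 CPM. Among neurons Msi1 followed the layers, from 82.3 CPM (77.8 to 87.0) in layer II/III and 68.2 CPM (63.8 to 72.8) in layer IV to 38.1 CPM (34.1 to 42.4) in layer V and 47.5 CPM (42.5 to 53.0) in layer VI.

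Elavl4 (HuD) was highest around the birth of excitatory neurons. It stood at 155.8 CPM (137 to 177) in dividing progenitors, 254 CPM (231 to 280.1) in newborn neurons and 65.2 CPM (63.2 to 67.1) in excitatory neurons, and newborn neurons were 3.90-fold (3.52 to 4.32) above the last. Within dividing progenitors the level depended on the gate, at 317 CPM (262 to 380) in Eomes cells, 194 CPM (153 to 243) in cells of the inhibitory gate and 48.6 CPM (32.8 to 69.4) in cells of the radial glia gate. The Eomes cells were 6.52-fold (4.34 to 10.1) above the radial glia gate, and 7.14-fold without cells marked as doublets. In dividing cells without Neurod UMIs, a filter that removes 27 of the 32 Eomes cells, Elavl4 was 1.80-fold (1.41 to 2.25) above excitatory neurons and no longer past 2-fold. Radial glia or astrocytes were at 35.6 CPM and the oligodendrocyte lineage at 73.2 CPM, and without Neurod UMIs at 18.2 CPM and 76.8 CPM. The 32 Cajal-Retzius cells, early-born neurons of layer I, also held a high level, 236 CPM (198 to 278), or 3.62-fold (3.03 to 4.28) that of excitatory neurons.

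Elavl2 (HuB) was highest in Eomes dividing cells, followed by interneurons with Lhx6 or Sst and newborn neurons, whose intervals overlapped. It was at 237 CPM (213 to 263) in dividing progenitors, 463 CPM (431 to 498) in newborn neurons and 215 CPM (212 to 219) in excitatory neurons. The ratio of dividing progenitors to excitatory neurons was 1.10 (0.990 to 1.22), but 0.429 (0.327 to 0.552), in the opposite direction, without Neurod UMIs. That filter removes 27 of the 32 Eomes dividing cells, so these ratios cover different mixes of progenitors. The level pooled over all dividing progenitors covered a wide split, since Eomes dividing cells stood at 583 CPM (508 to 666) and those of the radial glia gate at 71.3 CPM (51.8 to 95.7), an 8.17-fold (5.89 to 11.6) difference. From Eomes dividing cells to newborn neurons the ratio was 0.795 (0.683 to 0.929). Radial glia or astrocytes were at 85.8 CPM (75.3 to 97.3), and at 38.8 CPM in the 173 of them without Neurod UMIs.

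Elavl3 (HuC) was higher in each class in turn from dividing cells of the radial glia gate to Eomes dividing cells, newborn neurons and excitatory neurons. Its level was 225 CPM (189 to 266) in dividing cells of the radial glia gate, 516 CPM (445 to 594) in Eomes dividing cells, 660.3 CPM (621 to 701) in newborn neurons and 841 CPM (834 to 848) in excitatory neurons. Dividing cells of the inhibitory gate were at 623 CPM (548 to 707), an interval that overlapped those of Eomes dividing cells and of newborn neurons. Interneurons, at 872 CPM (842 to 903), were 1.04-fold (1.0001 to 1.07) above excitatory neurons. Glia held 285 CPM (radial glia or astrocytes) and 351 CPM (oligodendrocyte lineage), which became 139 CPM and 211 CPM without Neurod UMIs. The non-neural background was 117 CPM (88.0 to 154), and 14.3 CPM by the same filter. Filtered radial glia or astrocytes were 9.73-fold (3.27 to 47.6) above filtered non-neural cells, though these held only 3 UMIs of Elavl3.

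Each RBFOX gene was lower in dividing progenitors, glia and non-neural cells than in excitatory neurons. Rbfox1 was at 57.7 CPM (46.2 to 71.2) in dividing progenitors, 165.5 CPM (146 to 187) in newborn neurons and 330.5 CPM (326 to 335) in excitatory neurons, 3 classes with separate intervals. Dividing progenitors stood at 0.175 (0.140 to 0.215) of the excitatory level, and at 0.0326 (0.0131 to 0.0672) without Neurod UMIs, where 7 UMIs remained. Newborn neurons stood at 0.501 (0.443 to 0.565), at the edge of 2-fold, and at 0.297 to 0.504 over the alternatives. Radial glia or astrocytes were at 80.8 CPM and the oligodendrocyte lineage at 76.5 CPM. Without Neurod UMIs they were at 20.7 CPM and 16.5 CPM, beside 14.3 CPM in filtered non-neural cells. That last level rested on only 3 UMIs and is a coarse background.

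In newborn neurons Rbfox2 and Rbfox3 were within 2-fold of the pooled excitatory neurons. Rbfox2 was at 168 CPM (148 to 190) in dividing progenitors and at 419 CPM (388 to 451) in newborn neurons, against 449.5 CPM (444 to 455) in excitatory neurons. Dividing progenitors stood at 0.373 (0.328 to 0.422) of the excitatory level, and at 0.178 (0.133 to 0.234) without Neurod UMIs. The newborn to excitatory ratio, 0.931 (0.862 to 1.005), had an interval that included 1, but it was at 0.681 to 0.936 over the alternatives. Rbfox3 was at 58.4 CPM (46.8 to 71.9) in dividing progenitors, 205 CPM (184 to 229) in newborn neurons and 192 CPM (189 to 195) in excitatory neurons, with a newborn to excitatory ratio of 1.07 (0.956 to 1.19). The pooled class joins layers that differ, and against layer II/III neurons alone newborn neurons were at 0.772 (0.713 to 0.834) for Rbfox2 and 1.78 (1.58 to 2.003) for Rbfox3. Eomes dividing cells were above those of the radial glia gate for both genes, by 2.76-fold (1.99 to 3.87) for Rbfox2 and 4.58-fold (2.58 to 8.51) for Rbfox3. Without cells marked as doublets these ratios were 4.23 (2.77 to 6.59) and 8.02 (3.68 to 19.9). For Rbfox3, dividing progenitors stood at 0.304 (0.243 to 0.374) of the excitatory level, and at 0.120 (0.0672 to 0.198) without Neurod UMIs. For glia the Rbfox3 level rested on cells that also held Neurod UMIs. Without those cells it went from 51.6 to 4.96 CPM in radial glia or astrocytes and from 42.4 to 9.33 CPM in the oligodendrocyte lineage, below the 23.8 CPM of filtered non-neural cells (5 UMIs). For Rbfox2 it went from 153 to 47.9 CPM and from 138 to 76.1 CPM, around the 61.8 CPM of filtered non-neural cells. Whether those non-neural cells express Rbfox2 themselves was not tested.

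Nova1 was the member with the fewest UMIs, and its glial levels were above those of excitatory neurons. It was at 42.7 CPM (35.7 to 50.7) in the oligodendrocyte lineage, 27.0 CPM (21.3 to 33.9) in radial glia or astrocytes and 10.8 CPM (9.98 to 11.6) in excitatory neurons. The oligodendrocyte lineage was 3.97-fold (3.27 to 4.79) and radial glia or astrocytes 2.52-fold (1.96 to 3.19) above excitatory neurons. In glia without Neurod UMIs its levels were 47.4 CPM and 33.0 CPM. The highest value, 51.3 CPM (25.6 to 91.8), came from 11 UMIs in 15 striatal-type inhibitory neurons, 33.3% of which were marked as doublets, and its interval included both glial levels. The non-neural cells were at 4.43 CPM (0.537 to 16.01), from 2 UMIs. Of the 50-base windows in the last 500 bases of Nova1 transcripts, 21.5% are shared with Gm33869, so reads from there may not have been assigned uniquely. That symbol is not among the genes listed in the UMI table either.

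**Figure D3:**
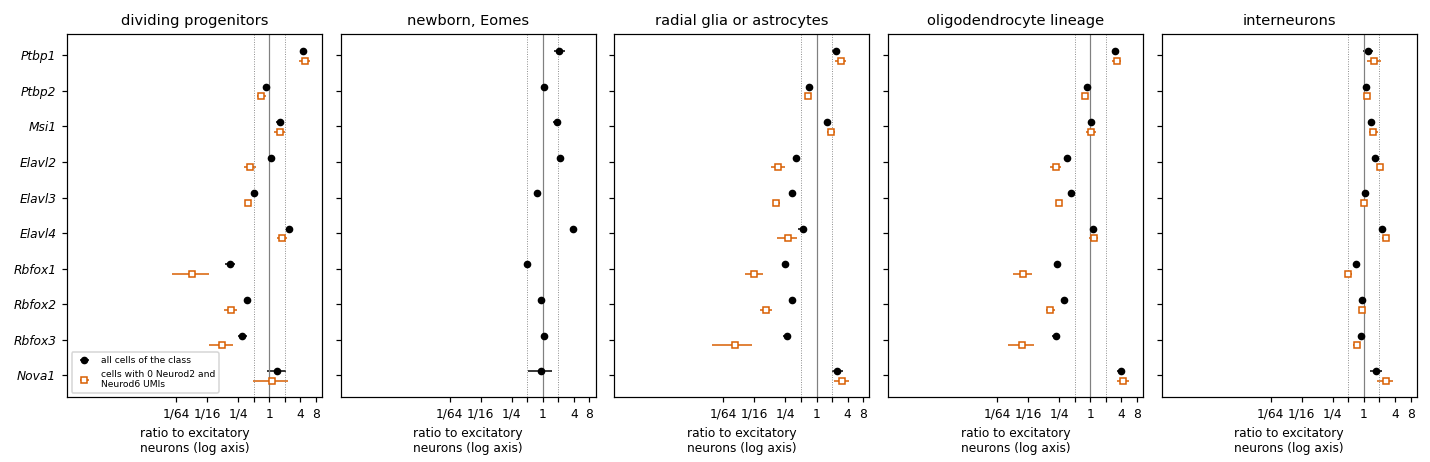
Ratio of each gene's level to that in excitatory neurons (x axis, log scale) for 5 classes, with 95% intervals for counting error; circles are all cells of the class, open squares the cells with 0 Neurod2 and Neurod6 UMIs (not drawn for newborn neurons, of which 201 of 203 held such UMIs), and dotted lines mark 2-fold. The squares lie left of the circles for Elavl2, Elavl3 and the 3 Rbfox genes in dividing progenitors and both glial classes, as for Rbfox3 in radial glia or astrocytes (0.269 and 0.0258), whereas those of Ptbp1 stay at or right of the circles.

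The layers were compared next, as the study asked about upper-layer neurons. Deep-layer neurons differed from upper-layer neurons by 2-fold for 1 member, Nova1, where 7.85% of 15321 genes were higher and 5.08% lower (12.9% in either direction). Nova1 was at 14.7 CPM in deep and 7.17 CPM in upper layers, a ratio of 2.05 (1.70 to 2.47), which was 1.999 and just below the limit when layers were assigned by a 3-fold excess of their markers. By layer it was at 7.33 CPM (6.04 to 8.81) in II/III, 8.02 CPM (6.57 to 9.70) in IV, 11.9 CPM (9.71 to 14.4) in V and 18.4 CPM (15.3 to 22.0) in VI. The interval of layer VI lay above those of the other 3 layers.

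Rbfox3 separated layer IV from the remaining layers. It was at 326 CPM (316 to 336) in layer IV, 151 CPM (143 to 159) in layer V, 138 CPM (129 to 147) in layer VI and 115 CPM (110.02 to 121) in layer II/III. Layer IV was 2.82-fold (2.67 to 2.99) above layer II/III. Layer IV neurons were also deeper, with a median of 11732.5 UMIs against 6779, and among cells of 8000 to 12000 UMIs the ratio was 2.55 (2.32 to 2.80, 424 and 537 cells). Layer IV cells were those with at least 2 UMIs of Rorb, Inhba and Rspo1 and layer II/III cells those with 0, so that cells of intermediate counts are not in this comparison. Of the 2157 layer II/III cells, 2114 held a UMI of Igfbpl1, a gene taken up below. Rbfox3 was at 113 CPM (108 to 118) in these and at 210 CPM (166 to 262) in the 43 without it. The part of neuronal maturity in the layer contrast was not tested.

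Rbfox1 was instead set apart in layer V. It stood at 222 CPM (212 to 232) in layer V and at 385 CPM (371 to 401) in layer VI, 387 CPM (376 to 398) in layer IV and 362 CPM (352 to 371) in layer II/III, so layer V was at 0.575 (0.542 to 0.610) of layer VI. Elavl2 went the other way, at 287 CPM (276 to 299) in layer V and 221 CPM (210.2 to 233) in layer VI, as did Elavl4, at 79.9 CPM (74.1 to 86.0) and 55.5 CPM (50.004 to 61.4). Layer V cells had more UMIs, with a median of 14963.5 against 9287 in layer VI, and the part of depth in these contrasts was not tested. Elavl3 varied least, from 781 CPM in layer VI to 874 CPM in layer IV. Rbfox2 was highest in layer II/III, at 543 CPM (531 to 554), and at 389 to 425 CPM in the other 3 layers.

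**Figure D4:**
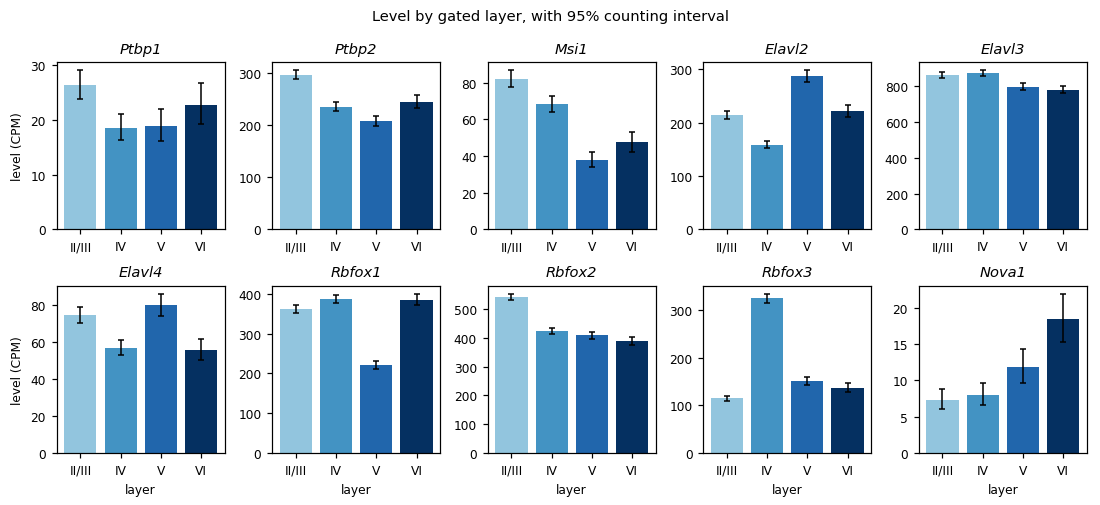
Level of each gene (y axis, CPM, from 0, with a scale for each panel) in layer II/III, IV, V and VI neurons, with 95% Poisson intervals for counting error. Rbfox3 stands out in layer IV at 326 CPM, Rbfox1 is lowest in layer V at 222 CPM, and Nova1 is highest in layer VI at 18.4 CPM.

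Layer II/III neurons were then ordered by Igfbpl1, a gene that was at 2836 CPM in newborn and 707 CPM in excitatory neurons and is known from immature neurons. In the comparison of cells with and without a UMI, 0 of the 8 members that passed the filter were 2-fold apart, where 4.32% of 5723 genes were higher and 2.18% lower (6.5% in either direction). Elavl4 came nearest at 1.996-fold (1.18 to 3.66). Rbfox3 was lower in cells with Igfbpl1, at 0.539 (0.429 to 0.685). Rbfox2, at 1.31 (1.12 to 1.54), and Rbfox1, at 1.25 (1.03 to 1.53), were higher in them. The intervals of the other members that passed the filter included 1. Only 43 cells were without Igfbpl1, so cells thinned to 2000 UMIs each were also binned by their Igfbpl1 UMIs, a step added after seeing the data.

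Along these bins (0, 1 to 2, 3 to 5, 6 to 9 and 10 or more Igfbpl1 UMIs, in 223, 601, 761, 450 and 122 cells) Elavl4 climbed at each step. Its level was 43.4 CPM (35.0 to 53.3), 53.4, 75.9, 118 and 146 CPM (117 to 180), and the intervals of neighbouring bins overlapped for the first pair and the last pair. Elavl2 went from 205 CPM (186 to 225) to 183, 215, 256 and 325 CPM (281 to 374), with its lowest value in the second bin. Rbfox3 went from 157 CPM (141 to 175) down to 91.0 CPM (79.7 to 103) in the fourth bin and stood at 132 CPM (105 to 165) in the fifth. Ptbp1 lay between 22.6 and 36.8 CPM with overlapping intervals throughout. The median depth fell along the same bins, from 9230 to 5126.5 UMIs, and its part in these levels was not tested.

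**Figure D5:**
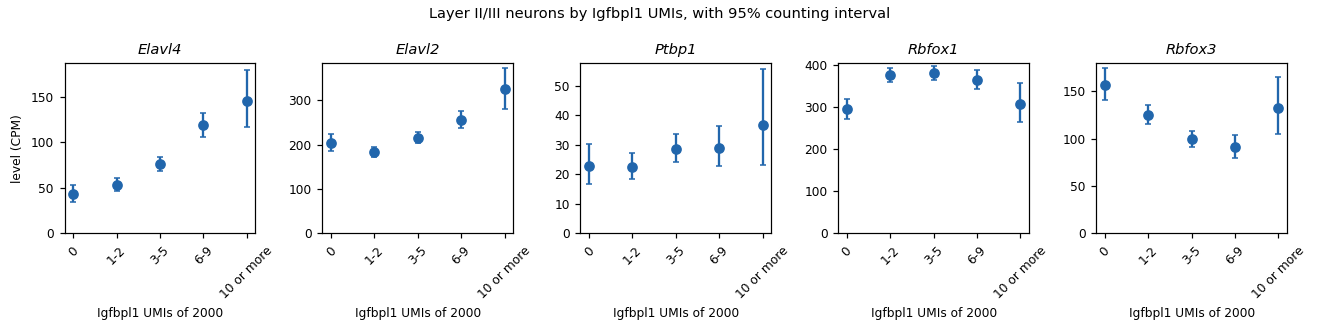
Level of 5 members (y axis, CPM, from 0) in layer II/III neurons by the number of Igfbpl1 UMIs in cells thinned to 2000 UMIs (x axis), with 95% Poisson intervals for counting error. Elavl4 goes from 43.4 to 146 CPM and Elavl2 from 205 to 325 CPM, while Ptbp1 shows overlapping intervals.

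Interneurons were compared by origin. Those with Lhx6 or Sst, the markers of the medial ganglionic eminence, numbered 173, and those with Adarb2, Prox1, Sp8 or Htr3a, markers known from the caudal ganglionic eminence, numbered 223. Elavl2 was at 483 CPM (449 to 518) in the former and 249 CPM (226 to 275) in the latter, a ratio of 1.94 (1.71 to 2.19). Rbfox1 was likewise higher in the former, at 285 CPM (260 to 313) against 167 CPM (148 to 188), a ratio of 1.71 (1.47 to 1.995). In cells of 8000 to 12000 UMIs, 35 and 20 in number, the ratio was 2.25 (1.62 to 3.16) for Elavl2 and 1.38 (0.954 to 2.02) for Rbfox1, whose interval then included 1. Elavl4 was 1.23-fold (1.03 to 1.48) higher in the former among all cells and 2.27-fold (1.38 to 3.91) in this window. Elavl3 and Rbfox2 did not differ beyond counting error, with ratios of 0.950 (0.881 to 1.02) and 0.989 (0.887 to 1.10). Against excitatory neurons, Elavl4 in interneurons was 2.21-fold (2.02 to 2.42) higher, at 144 CPM (132 to 157).

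The share of cells with a UMI gave a similar picture once each cell was thinned to 2000 UMIs. Elavl4 was found in 23.4% (16.7 to 31.3) of dividing progenitors, 41.4% (34.5 to 48.5) of newborn neurons, 11.9% (11.2 to 12.8) of excitatory neurons and 0 of the 49 thinned non-neural cells, where 3 cells would be 6.12% and the exact upper limit is 7.25%. Both limits hold for cells with a UMI after thinning only. Unthinned, these shares were 58.2%, 72.4%, 40.5% and 8.16%. Rbfox3 was found in 7.80% (3.96 to 13.5) of dividing progenitors and 3.49% (1.76 to 6.16) of radial glia or astrocytes, at or below the 10.2% (3.40 to 22.2) of non-neural cells, and in 26.5% (25.4 to 27.6) of excitatory neurons. The unthinned shares were 29.1%, 15.6%, 20.4% and 65.9%. Any of Elavl2, Elavl3 and Elavl4 was found in 37.0% of thinned dividing cells of the radial glia gate, 90.6% of Eomes dividing cells, 88.0% of excitatory neurons and 12.2% of the non-neural cells. Any of Rbfox1, Rbfox2 and Rbfox3 was found in 32.6% of dividing progenitors, 24.1% of radial glia or astrocytes and 25.1% of the oligodendrocyte lineage, near or below the 30.6% of non-neural cells, and in 83.6% of excitatory neurons. In the 17 endothelial cells the share was 41.2% for these RBFOX genes and 5.88% for the ELAV genes. Whether non-neural cells express RBFOX genes themselves was not tested, so their share may not be a background for this family.

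The likeness of patterns was measured by Pearson's r of log2(CPM + 1) over 13 classes that share 1 library, as a description. Among the members, Elavl3 and Rbfox2 (0.92) and Rbfox1 and Rbfox2 (0.90) were most alike, and Ptbp1 and Rbfox1 (-0.79) most opposed. Of 10092 other genes, Mpped1 was most like Rbfox1 (0.99), Gmip most like Rbfox2 (0.97), Ube2d1 most like Rbfox3 (0.93), Fam57b most like Elavl3 (0.97), Negr1 most like Elavl2 (0.86) and Cttn most like Elavl4 (0.84). For the remaining members these were Gm45836 (0.99) for Ptbp1, Dot1l (0.95) for Ptbp2, 9530003O04Rik (0.93) for Msi1 and Tmcc3 (0.87) for Nova1.

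Other RNA-binding protein genes of neural cells were taken from a list of 39, of which 33 could be tested between dividing progenitors and excitatory neurons. Of these, 5 were 2-fold higher and 11 lower in dividing cells, where 10.6% and 19% of all 10008 tested genes were, with a median log2 ratio of -0.23 beside -0.08 over all tested genes. The CELF and MBNL genes, regulators of splicing in development, made up 1 of the higher and 5 of the lower, from 8 tested. Msi2, the paralog of Msi1, was at 470 CPM in dividing progenitors and 27.8 CPM in excitatory neurons, a 16.9-fold (15.5 to 18.4) difference. Qk, a splicing regulator of glia, was 16.6-fold (15.5 to 17.7) and Mbnl2 4.02-fold (3.13 to 5.09) higher. Celf5, at 0.204 (0.158 to 0.259), Khdrbs2, at 0.0993 (0.0636 to 0.148), and Cpeb3, at 0.0778 (0.00941 to 0.282) from 2 UMIs in dividing cells, were more than 4-fold lower.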

How the data were processed

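sc-RNA Seq was performed on the P0 cerebral cortex of WT mice with the 10x Chromium 3′ chemistry. The authors deposited raw UMI counts per gene and cell, with no normalization, and a table of totals that equalled the sums over them. Per the labels, the submitters' processing notes name mm9, STAR, Cell Ranger 2 and Seurat without their order. The annotation is not given in the sources used here, so no member was placed on the files' genome.

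Cells with at least 200 genes and 2000 UMIs outside mitochondrial genes (8446, median 8616.5 UMIs) were gated by marker UMIs. Counts were summed over the cells of each class and divided by its UMIs outside mitochondrial genes (CPM). Levels carry exact Poisson intervals, ratios exact conditional binomial intervals and shares exact Clopper-Pearson intervals, all at 95% and for counting error only. A gene was tested, in the sense of being compared, when its pooled rate gave at least 10 UMIs in each class, and was called at 2-fold. Free RNA was not removed. Doublets were marked with Scrublet (scanpy 1.11.5, threshold 0.2, set by hand) and kept, with their removal as an alternative. Counting was tested on simulated data. All 10 members, the other RNA-binding protein genes past 4-fold in dividing progenitors, and the gene most like each member were named. For likeness, genes needed 20 CPM in at least 1 class and classes needed at least 30 cells. The members, gates and lists were chosen with earlier results of these data known. The gates on Neurod UMIs, the thinned Igfbpl1 bins and the depth windows were added after seeing the data. The knock-in group named in the design was not analysed here.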

Additional observations from a re-analysis of the deposited data

How the results depend on the processing

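With 1 library, no replicate could be left out and nothing could be paired. No member called at 2-fold changed the direction of its ratio under any setting run (fewest UMIs of 1000 or 4000, 1 more marker per gate, gates on thinned cells, doublets left out, mitochondrial UMIs kept, the mean of CPM per cell, folds of 1.5 and 3, a layer ratio of 3, no Neurod UMI, thinned Igfbpl1). In the oligodendrocyte lineage 7 members were called at 2-fold, beside 27.5% of all tested genes. Elavl3 ranged there from 0.251 to 0.511, so it was not past 2-fold in every setting. With a fold of 3, where 14% of all tested genes were called, the members called were Ptbp1, Nova1, Rbfox1, Rbfox2 and Rbfox3. With a fold of 1.5, where 45.7% were, the same 7 members were called. With a fold of 3, the counts were 3 in dividing progenitors (16.3% of all tested genes), 1 in newborn neurons (7.31%), 2 in radial glia or astrocytes (14.7%), 0 in interneurons (2.6%) and 0 between layers (5.95%). With a fold of 1.5, they were 5 in newborn neurons (34.4%), 3 in interneurons (17.2%), 2 between layers (26.3%) and 3 with Igfbpl1 (20%). For the settings that follow, no share over all genes is given, so members are named and not counted. Without marked doublets, Msi1 and Rbfox1 were added in newborn neurons, and Rbfox1 was lower still, at 0.297, in a further setting. In radial glia or astrocytes Elavl4 was added without Neurod UMIs, at 0.279. In interneurons Nova1 was added with 1 more marker per gate and by the mean per cell. Rbfox1 and Nova1 were added with thinned gates, and Elavl2 and Nova1 without Neurod UMIs. Between layers, Nova1 fell below 2-fold at a layer ratio of 3. With Igfbpl1, Elavl4 passed 2-fold at 4000 UMIs, with 1 more marker, with mitochondrial UMIs kept and in thinned cells. In dividing progenitors without Neurod UMIs, Elavl4 was no longer past 2-fold, and Elavl2 (not called among all cells, where its ratio was 1.10) and Elavl3 were called lower. The 43 cells without Igfbpl1 held too few UMIs for Nova1 and Ptbp1 to be compared between layer II/III neurons with and without Igfbpl1. The non-neural background rested on 49 cells.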

Other observations

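Among the other RNA-binding protein genes, a few patterns were picked after their values were seen and are given as values only. Rbm24, an RNA-binding protein known from muscle splicing, was at 93.2 CPM in layer IV neurons, 48.6 CPM in layer II/III, 16.2 CPM in layer V and 8.85 CPM in layer VI. Srrm4, which promotes neuronal microexons, was at 338 CPM in newborn neurons, 172 CPM in excitatory neurons, 109 CPM in dividing progenitors and 33.8 CPM in radial glia or astrocytes. Ptbp3, a further PTB paralog, was at 175 CPM in the 49 non-neural cells and 39.8 CPM in dividing progenitors. Mir124a-1hg, a host transcript of the neuronal microRNA known to lower PTBP1, was at 27.2 CPM in dividing progenitors, 55.2 CPM in newborn neurons and 46.8 CPM in excitatory neurons. Mir9-3hg was at 190.3, 128 and 65.2 CPM in the same 3 classes.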
